A study of Mus musculus with 8 samples.

Results

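The genes described here are 10 receptor chains for interleukins, most of them of the common gamma chain and IL-12 families: Il2rb, Il2rg, Il4ra, Il7r, Il15ra, Il12rb1, Il12rb2, Il18r1, Il10ra and Il6ra. They were chosen by name, with earlier results of these data known, from a table of 17384 genes. All 10 were among the 12340 genes with enough reads to be tested. The family name covers the list loosely: Il18r1 belongs to the IL-1 receptor family, Il10ra to the class II cytokine receptors, and Il6ra is the binding chain of a receptor that signals through gp130. RNA was sequenced from spleen cells sorted for both B220, the CD45 form typical of B cells, and CD3, the T cell receptor complex. The cells came from mice with the lpr mutation of the death receptor gene Fas, and the libraries formed 2 groups of 4. The Faslpr group carried Faslpr alone, and the EAF2Faslpr group carried Faslpr together with loss of Eaf2 (Eaf2-/-Faslpr), so every library had the Fas mutation and no group had normal Fas. Eaf2 encodes a partner of the ELL transcription elongation factors. The sources used here give neither the age, sex and strain of the mice nor the deleted stretch of Eaf2 and the cells in which it was lost. According to the series' description, the sort was made to follow signalling in apoptosis.

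Cytokine receptors of these families have no kinase of their own. Binding of the interleukin brings receptor chains together, the JAK kinases attached to them phosphorylate STAT factors, and the STATs move to the nucleus and switch on target genes. The common gamma chain serves the receptors for IL-2, IL-4, IL-7, IL-9, IL-15 and IL-21, which support the survival, division and differentiation of lymphocytes. The IL-12 and IL-18 receptors act together in T and NK cells to drive interferon gamma, the IL-18 receptor through MyD88 and IRAK proteins instead of JAKs. The B220-positive, CD3-positive T cells that accumulate in lpr mice are known for lacking CD4 and CD8 and for responding poorly to stimulation.

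Each library held between 15.6 M and 18.6 M estimated reads (M, megareads), so that 3 reads equalled 0.161 to 0.193 CPM (counts per megaread). Eaf2 itself fell to 4.74 ± 1.05 CPM in EAF2Faslpr from 25.5 ± 4.50 CPM in Faslpr libraries (SD, n = 4 each), and residual reads remained. Whether replicates were separate animals is not in the labels; the p-values therefore reflect the spread among these libraries alone, and that spread may be technical. The 11 T cell markers had summed levels of 4366 to 4627 CPM in EAF2Faslpr and 4254 to 4935 CPM in Faslpr libraries. Of these markers 2 rose and 0 fell, where 12.1% of all tested genes changed at an adjusted p under 0.05 (edgeR). Of 13 B cell markers all 13 rose, and their sum was 373, 412, 734 and 407 CPM in EAF2Faslpr replicates 1 to 4 against 99.1, 139, 165 and 126 CPM in Faslpr replicates 1 to 4, with no marker at 0. EAF2Faslpr replicate 3 stood apart, with the highest B cell sum, a neutrophil marker sum of 130 CPM against 14.1 to 21.3 CPM in the other 7 libraries, and a macrophage marker sum of 166 CPM against 55.6 to 89.9 CPM. EAF2Faslpr replicate 1 stood apart in the cytokine genes Il21 and Il10, given below. Calls of named genes that were lost without replicate 3 of EAF2Faslpr, or without its replicates 1 and 3, are given beside them. In bulk RNA, fewer cells of a type and less RNA per cell cannot be told apart.

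Of the 10 receptor chains, Il7r, Il18r1 and Il2rb rose and Il12rb1 and Il4ra fell in EAF2Faslpr cells. Across all tested genes 12.1% passed at an adjusted p under 0.05, with 7.14% higher and 4.96% lower. The remaining 5 (Il2rg, Il15ra, Il12rb2, Il10ra and Il6ra) did not pass. The median log2 fold change of the 10 was 0.23, beside -0.01 over all tested genes. The ranges of the 2 groups did not overlap for 6 of the 10, the 5 that passed and Il15ra, beside 17.7% of all tested genes. The larger increases, of Il7r and Il18r1, were in chains of low abundance, whereas both decreases and the increase of Il2rb were under 2-fold.

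**Figure D1:**
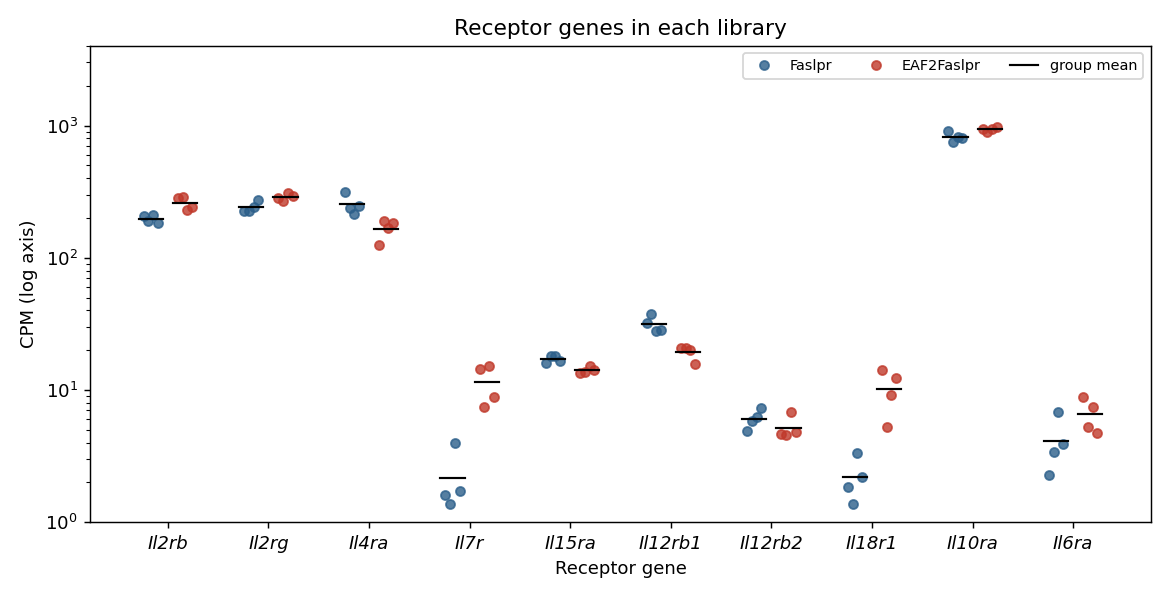
Level of each receptor gene in each of the 8 libraries, in CPM on a log axis; each point is a library and each black line a group mean (n = 4). Il7r and Il18r1 show the widest separation, with 7.48 to 15.3 and 5.30 to 14.1 CPM in EAF2Faslpr against 1.37 to 3.96 and 1.37 to 3.36 CPM in Faslpr libraries.

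Il7r, on chromosome 15, encodes the alpha chain of the IL-7 receptor, which pairs with the common gamma chain and sustains resting T cells. Its promoter window is shown because Il7r had the largest change of the 10 genes. The second is of Il18r1, the gene with the next largest change and in the same direction. Of its 3 windows the one printed was chosen after the search because it alone held TTCNNNGAA, while the others held 0 and 1 matches to any motif searched. The third gene shown is Il4ra, which fell. Each is read 5′ to 3′ on the gene's own strand from 250 bases before to 30 after the start, from RefSeq on build GRCm38.p6, which is not the build of the expression files (GRCm39). The windows are chr15:9529847-9530126 on the minus strand for Il7r, chr1:40465756-40466035 on the plus strand for Il18r1, and chr7:125552021-125552300 on the plus strand for Il4ra. Capitals mark matches to TTCNNNGAA, the spacing bound by STAT factors, or to TGTGGT, the core bound by RUNX factors.
Il7r: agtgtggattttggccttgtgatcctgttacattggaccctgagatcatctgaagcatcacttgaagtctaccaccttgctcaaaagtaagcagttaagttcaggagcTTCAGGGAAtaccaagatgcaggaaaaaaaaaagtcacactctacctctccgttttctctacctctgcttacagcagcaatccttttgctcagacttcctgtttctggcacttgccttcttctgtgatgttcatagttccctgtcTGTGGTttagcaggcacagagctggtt
Il18r1: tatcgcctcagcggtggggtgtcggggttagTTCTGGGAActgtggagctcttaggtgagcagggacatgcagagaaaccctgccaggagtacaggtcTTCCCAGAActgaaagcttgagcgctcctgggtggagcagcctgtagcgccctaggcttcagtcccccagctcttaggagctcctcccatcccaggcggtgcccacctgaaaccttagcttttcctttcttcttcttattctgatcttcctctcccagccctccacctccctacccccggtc
Il4ra: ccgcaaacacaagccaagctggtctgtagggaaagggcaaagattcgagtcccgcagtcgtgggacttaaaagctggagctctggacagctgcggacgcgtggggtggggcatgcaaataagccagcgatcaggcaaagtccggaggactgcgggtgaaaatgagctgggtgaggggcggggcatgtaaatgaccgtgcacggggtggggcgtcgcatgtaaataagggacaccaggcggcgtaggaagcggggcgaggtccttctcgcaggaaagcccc
The table of promoters held windows for 7 of the 10 genes, 10 windows of 300 bases in all, because Il18r1 had 3 and Il15ra 2. Il2rb and Il12rb1, which both passed, and Il10ra had no window and could not be searched. Both strands were searched for TTCNNNGAA, TGTGGT and TGANTCA, the AP-1 motif, and no match overlapped another in the windows printed. TTCNNNGAA was in 3 of the 10 windows, those of Il7r, Il12rb2 and the Il18r1 window above, where it occurred 2 times. Of 32851 windows of the same length 8.30% held it. TGTGGT was in 3 of the 10 windows (Il7r, Il2rg and another Il18r1 window) and in 16.8% of all windows, and TGANTCA was in 1, an Il15ra window, and in 7.81% of all. The Il4ra window held none of the 3 motifs. These matches describe letters in the reference and carry no measurement of binding.

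Il7r measured 14.5, 7.48, 15.3 and 8.83 CPM in EAF2Faslpr replicates 1 to 4, against 1.60, 1.37, 3.96 and 1.72 CPM in Faslpr replicates 1 to 4. All EAF2Faslpr libraries lay above all Faslpr libraries, and within the Faslpr group replicate 3 was the highest. The means were 11.5 ± 3.94 and 2.16 ± 1.21 CPM (SD, n = 4), a 5.29-fold increase with a log2 fold change of 2.40 (SE 0.36, 95% interval 1.60 to 3.21) and a Benjamini-Hochberg adjusted p of 0.00222 (edgeR, quasi-likelihood). The reads behind these values numbered 137 to 277 per EAF2Faslpr and 22.9 to 71.7 per Faslpr library. Without EAF2Faslpr replicate 3, the library richest in B cell transcripts, the log2 fold change was 2.24 (adjusted p = 0.00753), and without EAF2Faslpr replicates 1 and 3, the highest for Il7r, it was 1.91 (adjusted p = 0.0260). Il7r and the B cell marker sum were both higher in all EAF2Faslpr libraries. Both were also highest in replicate 3 of each group, with sums of 734 CPM in EAF2Faslpr and 165 CPM in Faslpr. EAF2Faslpr replicates 1 and 2, with marker sums of 373 and 412 CPM, had Il7r at 14.5 and 7.48 CPM. The part of the B cell transcripts in the Il7r difference was not tested.

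Il2rg, on chromosome X, encodes the common gamma chain itself. It measured 283.9, 271.05, 307.4 and 292.8 CPM in EAF2Faslpr replicates 1 to 4 and 225.9, 224.4, 243.4 and 271.17 CPM in Faslpr replicates 1 to 4. The groups met at Faslpr replicate 4, which lay just above EAF2Faslpr replicate 2. The log2 fold change was 0.26 (SE 0.08, 95% interval 0.08 to 0.43), and the gene did not pass by edgeR's quasi-likelihood test (adjusted p = 0.0593). It passed without Faslpr replicate 4 (log2 fold change 0.32, adjusted p = 0.0160) and with DESeq2 on all libraries (adjusted p = 0.0192).

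Il2rb, the signalling beta chain shared by the IL-2 and IL-15 receptors, measured 283.0, 286.8, 228.3 and 244.1 CPM in EAF2Faslpr replicates 1 to 4. In Faslpr replicates 1 to 4 it measured 206.9, 190.2, 211.7 and 182.1 CPM. Every EAF2Faslpr library exceeded every Faslpr library, with EAF2Faslpr replicates 3 and 4 nearest to the Faslpr range. The increase was 1.32-fold (log2 fold change 0.40, SE 0.09, adjusted p = 0.0177, edgeR). It was 0.45 without EAF2Faslpr replicate 3 (adjusted p = 0.0128), but the call was lost without EAF2Faslpr replicate 2 (adjusted p = 0.0531) or without Faslpr replicate 2 (adjusted p = 0.0592). Il2rb is also a marker of memory T cells and NK cells. The 8 NK and innate lymphoid markers summed to 2.68 to 5.62 CPM in EAF2Faslpr and 2.20 to 3.36 CPM in Faslpr libraries, with Klra8 and Klra4 at 0 in all EAF2Faslpr libraries. Of these markers 2 were tested and 0 passed in edgeR, 1 of them at an unadjusted p under 0.05. With replicate number as a block, or without Faslpr replicate 3, 1 passed.

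Il15ra, on chromosome 2, encodes the chain that captures IL-15 and presents it to neighbouring cells. It measured 13.6, 13.8, 15.1 and 14.1 CPM in EAF2Faslpr replicates 1 to 4 and 16.0, 17.9, 18.2 and 16.6 CPM in Faslpr replicates 1 to 4. The groups did not overlap, and the gap between them was small, from 15.1 to 16.0 CPM. With a log2 fold change of -0.28 (95% interval -0.49 to -0.08) the gene did not pass in edgeR (adjusted p = 0.0815), nor in any of the 18 other settings tried. Il2rb and Il15ra thus had differences of opposite sign, and the ratio of Il2rb to Il15ra in FPKM, the authors' values per length of transcript and per megaread, was 10.7 to 15.9 in EAF2Faslpr and 6.82 to 10.05 in Faslpr libraries.

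Il4ra, on chromosome 7, encodes the binding chain for IL-4, which with the common gamma chain or with Il13ra1 activates STAT6. It measured 125.4, 189.5, 166.6 and 182.4 CPM in EAF2Faslpr replicates 1 to 4 and 315.4, 237.7, 215.1 and 247.6 CPM in Faslpr replicates 1 to 4. The groups did not overlap, with the lowest value in EAF2Faslpr replicate 1 and the highest in Faslpr replicate 1. The decrease was 1.53-fold (166 ± 28.7 against 254 ± 43.2 CPM, SD, n = 4), a log2 fold change of -0.61 (SE 0.15, 95% interval -0.94 to -0.29, adjusted p = 0.0213, edgeR). The call was lost without EAF2Faslpr replicate 3 (log2 fold change -0.62, adjusted p = 0.0519), without Faslpr replicate 1 (-0.49, adjusted p = 0.0515) and without EAF2Faslpr replicates 1 and 3 (-0.44, adjusted p = 0.132). Il2rg and Il4ra, which form the type I IL-4 receptor, stood in an FPKM ratio of 5.05 to 7.82 in EAF2Faslpr and 2.49 to 3.93 in Faslpr libraries. Stat6, the factor activated by this receptor, stayed short of the threshold, at -0.07 on the log2 scale (adjusted p = 0.570).

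Il12rb1, the chain common to the IL-12 and IL-23 receptors, measured 20.9, 20.9, 20.2 and 15.7 CPM in EAF2Faslpr replicates 1 to 4 and 32.4, 37.4, 28.0 and 28.5 CPM in Faslpr replicates 1 to 4. The groups did not overlap, and EAF2Faslpr replicate 4 lay below the other 3 libraries of its group. The decrease was 1.63-fold, 19.4 ± 2.52 against 31.6 ± 4.34 CPM (SD, n = 4), with a log2 fold change of -0.70 (SE 0.13, 95% interval -0.98 to -0.42, adjusted p = 0.00558, edgeR). Without EAF2Faslpr replicate 3 it was -0.72 (adjusted p = 0.0152) and without replicates 1 and 3 it was -0.78 (adjusted p = 0.0322). Its partner Il12rb2, which confers high-affinity IL-12 binding and recruits STAT4, was scarce. Il12rb2 measured 4.63, 4.53, 6.78 and 4.80 CPM in EAF2Faslpr replicates 1 to 4 and 4.87, 5.78, 6.27 and 7.32 CPM in Faslpr replicates 1 to 4. These ranges overlapped widely, and the log2 fold change of -0.22 (95% interval -0.65 to 0.20) did not pass (adjusted p = 0.526, edgeR). Per length Il12rb1 exceeded Il12rb2 by 5.71 to 10.3 times in EAF2Faslpr and 8.45 to 14.7 times in Faslpr libraries, ranges that overlapped.

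Il18r1, on chromosome 1, encodes the IL-18 binding chain. It measured 14.1, 5.30, 9.15 and 12.4 CPM in EAF2Faslpr replicates 1 to 4 and 1.83, 1.37, 3.36 and 2.21 CPM in Faslpr replicates 1 to 4. All EAF2Faslpr libraries lay above the Faslpr range, and as for Il7r the highest Faslpr library was replicate 3. The increase was 4.65-fold, 10.2 ± 3.90 against 2.19 ± 0.849 CPM (SD, n = 4), a log2 fold change of 2.22 (SE 0.34, 95% interval 1.45 to 2.98, adjusted p = 0.00248, edgeR). It was 2.26 without EAF2Faslpr replicate 3 (adjusted p = 0.00674) and 2.01 without replicates 1 and 3 (adjusted p = 0.0240). Il18r1 and the B cell marker sum were both higher in all EAF2Faslpr libraries. Among Faslpr libraries both were highest in replicate 3 (3.36 and 165 CPM). Among EAF2Faslpr libraries the one with the lowest marker sum, replicate 1, had the highest Il18r1. The part of other cell types in the difference was not tested. Reads per library were 97.4 to 225 in EAF2Faslpr and 23.2 to 60.8 in Faslpr.

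Il10ra and Il6ra were at opposite ends of abundance and neither passed. Il10ra, the binding chain for the inhibitory cytokine IL-10, measured 938.5, 896.9, 940.5 and 974.9 CPM in EAF2Faslpr replicates 1 to 4 and 907.5, 749.6, 818.2 and 801.2 CPM in Faslpr replicates 1 to 4. The highest Faslpr library lay within the EAF2Faslpr range, and the log2 fold change was 0.20 (95% interval 0.03 to 0.36, adjusted p = 0.124, edgeR). Il6ra, the binding chain for IL-6, measured 8.87, 5.30, 7.44 and 4.75 CPM in EAF2Faslpr replicates 1 to 4 and 2.29, 3.40, 6.77 and 3.93 CPM in Faslpr replicates 1 to 4. Its ranges overlapped at Faslpr replicate 3, and the log2 fold change was 0.68 (95% interval -0.03 to 1.39, adjusted p = 0.225, edgeR). Without Faslpr replicate 3 it was 1.03 and passed (adjusted p = 0.0417).

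**Figure D2:**
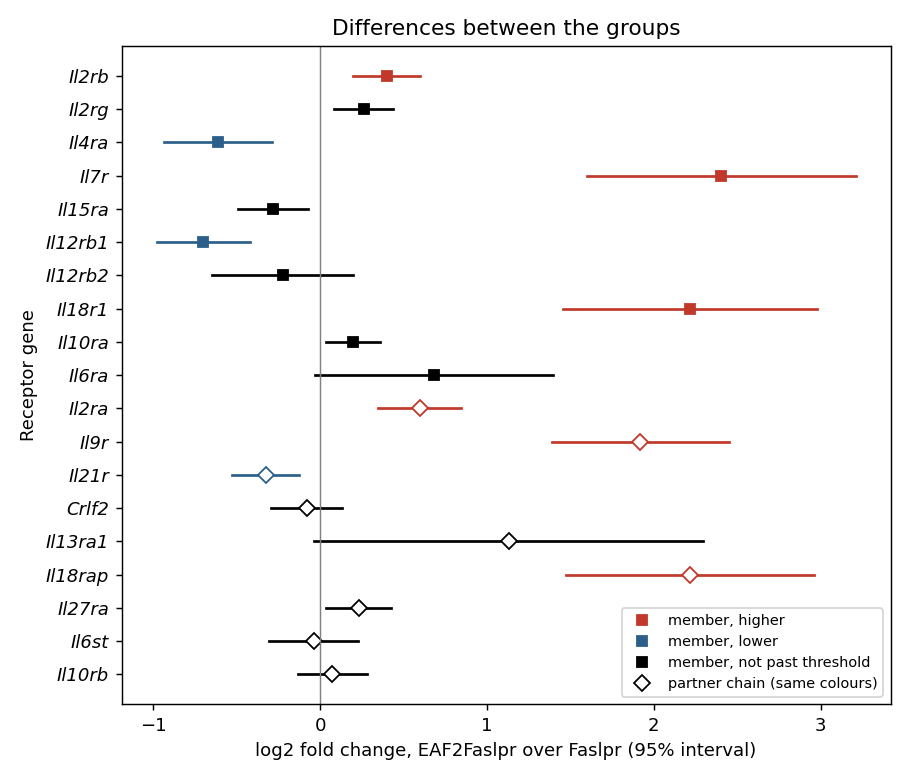
Log2 fold change of each receptor gene (squares) and of the 9 tested partner chains (open diamonds), EAF2Faslpr over Faslpr, with 95% intervals; red and blue mark genes past an adjusted p under 0.05. Il7r and Il18r1 lie at 2.40 and 2.22 beside Il18rap, the partner of Il18r1, at 2.22 and the related Il9r at 1.92, while most other chains lie within 1 log2 unit of 0.

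The chains that complete these receptors, or that belong to the same families, also moved in both directions. Of 10 listed, 9 were tested, 3 rose and 1 fell, with groups that did not overlap for 4, and the median log2 fold change was 0.23. Over all tested genes 12.1% passed and 17.7% had groups that did not overlap. Il18rap, which the IL-18 receptor needs for signalling, measured 6.17, 4.37, 6.12 and 4.08 CPM in EAF2Faslpr replicates 1 to 4 and 0.573, 0.894, 1.93 and 1.02 CPM in Faslpr replicates 1 to 4. It rose 4.65-fold (log2 fold change 2.22, SE 0.34, adjusted p = 0.00222, edgeR), close in size to Il18r1, so both chains of that receptor were higher. The FPKM ratio of Il18r1 to Il18rap was 1.22 to 3.16 in EAF2Faslpr and 1.76 to 4.17 in Faslpr libraries.

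Il9r, the binding chain for IL-9 and a partner of the common gamma chain, measured 13.6, 15.6, 23.6 and 17.5 CPM in EAF2Faslpr replicates 1 to 4 and 2.92, 4.65, 4.68 and 6.29 CPM in Faslpr replicates 1 to 4. It rose 3.78-fold (log2 fold change 1.92, SE 0.24, adjusted p = 0.000758, edgeR), and 1.74 on the log2 scale remained without EAF2Faslpr replicate 3. Il2ra, which raises the affinity of the IL-2 receptor, measured 50.1, 48.1, 43.8 and 59.4 CPM in EAF2Faslpr replicates 1 to 4 and 35.1, 34.2, 35.9 and 27.9 CPM in Faslpr replicates 1 to 4. It rose 1.51-fold (log2 fold change 0.60, SE 0.11, adjusted p = 0.00675, edgeR), so the alpha and beta chains of the IL-2 receptor were both higher. Il2rb exceeded Il2ra per length by 5.50 to 8.12 times in EAF2Faslpr and 7.54 to 8.22 times in Faslpr libraries. Il21r, the IL-21 binding chain, fell 1.25-fold, from 257 to 320 CPM in Faslpr to 221 to 250 CPM in EAF2Faslpr libraries (log2 fold change -0.33, adjusted p = 0.0405, edgeR). That call was lost without any of EAF2Faslpr replicates 1, 2, 3 or 4 (adjusted p = 0.0954, 0.106, 0.0879 and 0.0508) and without Faslpr replicate 1 or 4 (adjusted p = 0.103 and 0.0743). Without EAF2Faslpr replicates 1 and 3 it was 0.256.

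The other tested partners did not pass. Crlf2, which joins Il7r in the receptor for TSLP, was at -0.08 on the log2 scale (adjusted p = 0.674, edgeR), with a 95% interval of -0.29 to 0.13. Il13ra1, the alternative partner of Il4ra, was near the limit of detection at 0.442 to 1.48 CPM in EAF2Faslpr and 0.172 to 0.881 CPM in Faslpr libraries (log2 fold change 1.13, adjusted p = 0.216). Il10rb, the second chain of the IL-10 receptor, was at 0.07 (adjusted p = 0.696), and Il6st, which encodes gp130, at -0.04 (adjusted p = 0.875), positive without EAF2Faslpr replicate 1 (0.03) or Faslpr replicate 1 (0.05). Il27ra, the binding chain for IL-27, was at 0.23 (adjusted p = 0.128) and passed without Faslpr replicate 4 (adjusted p = 0.0474). Il23r, the partner of Il12rb1 in the IL-23 receptor, had at most 0.0642 CPM in any library, below the 3-read floor, and was not tested.

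**Figure D3:**
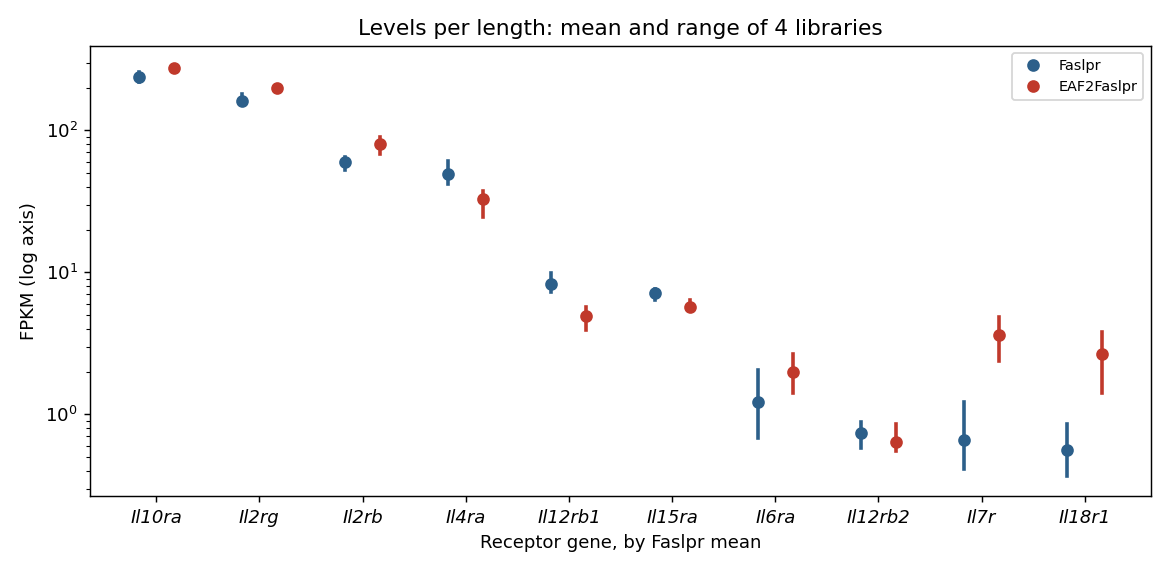
Level per transcript length of each receptor gene, in the authors' FPKM on a log axis; points are group means and bars the range of 4 libraries. Il10ra, Il2rg and Il2rb lead in both groups, and Il7r and Il18r1 lie lowest in Faslpr (0.658 and 0.565 FPKM) but above Il6ra and Il12rb2 in EAF2Faslpr.

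Levels can be compared between genes only per length, and for this the authors' FPKM values were used. In Faslpr cells the mean level was 236 FPKM for Il10ra, 162 for Il2rg, 60.0 for Il2rb and 49.5 for Il4ra. It was 8.31 FPKM for Il12rb1, 7.13 for Il15ra, 1.23 for Il6ra, 0.738 for Il12rb2, 0.658 for Il7r and 0.565 for Il18r1. The Faslpr libraries of neighbours in this order overlapped for Il2rb and Il4ra, for Il12rb1 and Il15ra, and for each neighbouring pair among Il6ra, Il12rb2, Il7r and Il18r1. In EAF2Faslpr cells the order began with Il10ra at 273 FPKM, Il2rg at 198, Il2rb at 79.8 and Il4ra at 32.7, and each of these was apart from the next in every library. Below them came Il15ra at 5.73 FPKM, Il12rb1 at 4.90, Il7r at 3.62, Il18r1 at 2.68, Il6ra at 1.99 and Il12rb2 at 0.635. Here neighbours overlapped from Il15ra down to Il6ra, and Il6ra and Il12rb2 were apart. Il7r moved from rank 9 to rank 7 and Il18r1 from rank 10 to rank 8. Despite the increase in Il7r, the common gamma chain remained in large excess per length: the FPKM ratio of Il2rg to Il7r was 42.2 to 79.9 in EAF2Faslpr and 136 to 366 in Faslpr libraries. For Il4ra over Il7r it was 5.40 to 15.8 against 34.6 to 122.

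Some of these receptor genes lie side by side, and their neighbours were looked up in a gene table of the GRCm38.p6 assembly, after their values were seen. Il18r1 sits between Il18rap and Il1rl1 on chromosome 1, in the cluster of IL-1 receptor family genes. There Il1rl2, the IL-36 receptor (log2 fold change 1.87, 2.45 ± 0.977 against 0.659 ± 0.185 CPM, adjusted p = 0.00766, edgeR), and the IL-1 decoy receptor Il1r2 (2.03, 3.57 ± 1.72 against 0.862 ± 0.391 CPM, adjusted p = 0.0119) also rose. Without EAF2Faslpr replicates 1 and 3 both calls were lost (adjusted p = 0.0509 for Il1rl2 and 0.0590 for Il1r2), and that of Il1r2 also without both replicates numbered 4 (adjusted p = 0.0511). Il1rl1, the IL-33 receptor, did not pass (1.07, adjusted p = 0.0519; without Faslpr replicate 3, adjusted p = 0.0417). Il4ra lies between Nsmce1 and Il21r on chromosome 7, and these 3 adjacent genes all fell. Nsmce1, a subunit of the SMC5/6 complex in DNA repair, went from 40.4 ± 7.71 to 26.2 ± 4.63 CPM (log2 fold change -0.62, adjusted p = 0.0293). The Nsmce1 call was lost without EAF2Faslpr replicate 1 or 4 (adjusted p = 0.0626 and 0.0835) and without Faslpr replicate 1, 2 or 4 (adjusted p = 0.0703, 0.0685 and 0.0661). Without EAF2Faslpr replicates 1 and 3 it was 0.126. Il15ra lies beside Il2ra, which rose, whereas Il15ra had a negative log2 fold change. Within 2 genes of the receptor genes that passed, 12 neighbours were tested. Of these 4 passed, all in the direction of the receptor gene, beside 12.1% of all tested genes that passed in either direction. At 3 or 4 genes away, Il1r2 and Cyth4, near Il2rb (0.52, adjusted p = 0.0298), rose with the receptor gene. The others that passed at that distance moved against the receptor gene. Mfsd9, on the far side of the Il18r1 cluster, fell (-1.16, adjusted p = 0.0266), a call lost without any single library except Faslpr replicate 4 (adjusted p = 0.0531 to 0.0749) and without EAF2Faslpr replicates 1 and 3 (0.131). Near Il12rb1, which fell, Ifi30, an enzyme of antigen processing, rose (1.10, adjusted p = 0.0142).

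By a rule on the gene with the largest change, the genes most like Il7r over the 8 libraries were sought among those averaging at least 5 CPM. They were Cd38 (Pearson r of log2(CPM + 1) 0.986), Pik3ap1 (0.986) and Mfng (0.983), given as a description over 8 libraries that share the group difference. Cd38 encodes an ectoenzyme on lymphocytes, Pik3ap1 the B cell adaptor BCAP, and Mfng a modifier of Notch receptors. All 3 rose, by 1.45, 1.78 and 0.97 on the log2 scale.

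**Figure D4:**
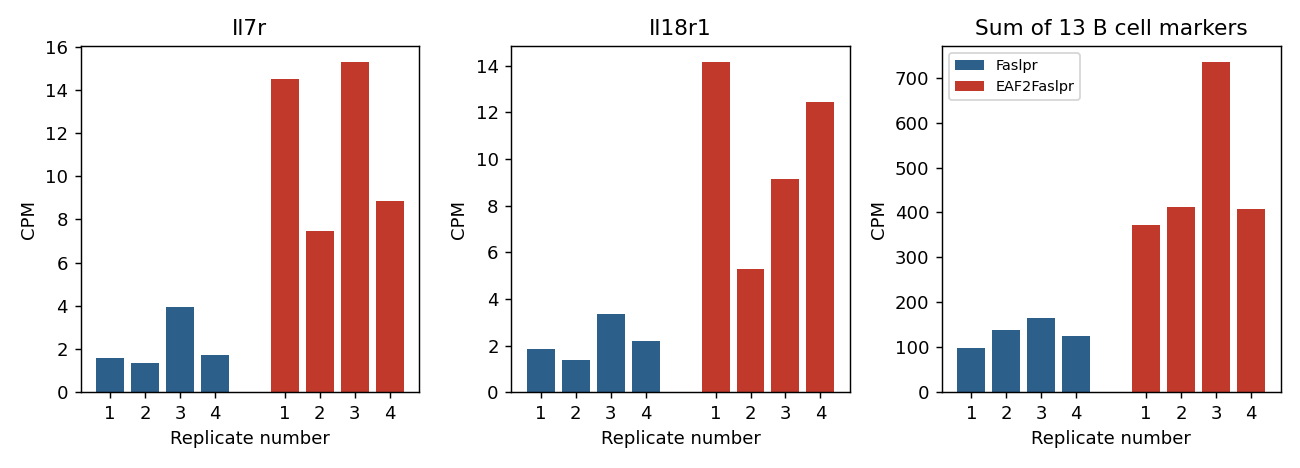
Il7r (left), Il18r1 (middle) and the sum of 13 B cell markers (right) in each library, in CPM; bars are single libraries by group and replicate number. The B cell sum and Il7r peak in EAF2Faslpr replicate 3, at 734 and 15.3 CPM, while Il18r1 peaks in EAF2Faslpr replicate 1 at 14.1 CPM. Among Faslpr libraries replicate 3 is the highest in each panel.

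Of 16 genes for cytokines that bind these receptors, or for subunits of such cytokines, 14 had a row in the table. Of these 5 had enough reads to be tested. Il7 and Il12b had no reads in any EAF2Faslpr library, and Il4 and Il6 had none in any Faslpr library. In the other group each of these genes had at most 2 reads in any library, so all were at the floor in both groups. With 0 reads, a level of up to 0.193 CPM per library remains possible from counting alone. Il21, the ligand of Il21r, was called higher (log2 fold change 3.35, adjusted p = 0.0404, edgeR) on the strength of EAF2Faslpr replicate 1, at 24.5 CPM against 1.26 to 4.25 CPM in replicates 2 to 4 and 0.179 to 1.54 CPM in Faslpr libraries. Without that library it was 1.81 (adjusted p = 0.0818), and without replicates 1 and 3 it was 1.79 (adjusted p = 0.200). The call was also lost without EAF2Faslpr replicate 4 (adjusted p = 0.0538) or without Faslpr replicate 1, 2 or 4 (adjusted p = 0.105, 0.111 and 0.0855). It was lost too without both replicates numbered 4 (adjusted p = 0.109), and with limma-voom on all libraries (log2 fold change 2.71, adjusted p = 0.157). Il12a, the p35 subunit of IL-12, measured 8.09 to 16.9 CPM in EAF2Faslpr and 12.6 to 18.9 CPM in Faslpr libraries and did not pass (adjusted p = 0.566). Il10, the ligand of Il10ra, did not pass either (adjusted p = 0.787), with 33.7 CPM in EAF2Faslpr replicate 1.

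Among 11 JAK and STAT genes 3 rose and 0 fell, beside 7.14% higher and 4.96% lower over all tested genes. Stat4, the factor used by the IL-12 receptor, measured 45.5, 62.7, 53.4 and 43.2 CPM in EAF2Faslpr replicates 1 to 4 and 14.6, 18.6, 13.1 and 20.1 CPM in Faslpr replicates 1 to 4, a 3.09-fold increase (log2 fold change 1.63, SE 0.16, adjusted p = 0.000198, edgeR). Thus Stat4 rose in the libraries in which Il12rb1 fell. Jak3, the kinase attached to the common gamma chain, measured 432, 262, 348 and 361 CPM in EAF2Faslpr replicates 1 to 4 and 102, 86.7, 232 and 178 CPM in Faslpr replicates 1 to 4. It rose 2.34-fold (log2 fold change 1.23, SE 0.28, adjusted p = 0.0189), a larger change than that of Il2rg, and lost its call without Faslpr replicate 1 (adjusted p = 0.0515) or without EAF2Faslpr replicates 1 and 3 (adjusted p = 0.142). Stat5b, activated by IL-2, IL-7 and IL-15, was 1.25-fold higher (log2 fold change 0.32, adjusted p = 0.0307). Its call was lost without EAF2Faslpr replicate 1, 2 or 4 (adjusted p = 0.0770, 0.0528 and 0.0831) and without Faslpr replicate 1, 2 or 4 (adjusted p = 0.0748, 0.0898 and 0.0630). Without EAF2Faslpr replicates 1 and 3, when 1 of the 11 genes passed, it was 0.120.

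Of 15 feedback inhibitors 2 rose and 0 fell, close to the 12.1% of all tested genes that passed in either direction. Socs3, which is induced by STAT3 and blocks gp130 signalling, measured 49.3, 15.7, 26.2 and 19.7 CPM in EAF2Faslpr replicates 1 to 4 and 2.52, 1.85, 5.78 and 3.39 CPM in Faslpr replicates 1 to 4 (log2 fold change 3.02, adjusted p = 0.00140, edgeR). The phosphatase gene Ptpn6, which encodes SHP-1, rose 2.15-fold (86.1 ± 12.04 against 40.1 ± 8.93 CPM, SD, n = 4, adjusted p = 0.00168). Cish, a target of STAT5, did not pass at 4.05, 1.97, 3.86 and 2.87 CPM in EAF2Faslpr against 1.09, 1.37, 1.71 and 2.15 CPM in Faslpr replicates 1 to 4 (adjusted p = 0.0530), and passed without EAF2Faslpr replicate 2 (adjusted p = 0.0293) or Faslpr replicate 4 (adjusted p = 0.0411). Of 20 target genes of these cytokines, 3 rose and 3 fell, beside the same 12.1%. The kinase gene Pim1 rose 1.70-fold (adjusted p = 0.000903) and Gata3, the factor of the IL-4 response, 2.98-fold from a low level (1.85 ± 0.549 to 5.52 ± 0.933 CPM, adjusted p = 0.00234). Bcl2, the survival gene induced by IL-7 and IL-2, fell 1.46-fold (adjusted p = 0.00313) and the cyclin gene Ccnd2 1.33-fold (adjusted p = 0.0147), the latter lost without EAF2Faslpr replicates 1 and 3 (adjusted p = 0.149). The Bcl2 decrease therefore stood beside increases of Il7r, Il2rb and Il2ra in the same libraries. Of 7 IL-18 adaptors 1 rose, again close to the share over all tested genes. It was the kinase gene Irak2 (log2 fold change 0.92, adjusted p = 0.0289). That call was lost without EAF2Faslpr replicate 1, 3 or 4 (adjusted p = 0.0561, 0.0611 and 0.0542) and without Faslpr replicate 1, 2 or 4 (adjusted p = 0.0806, 0.0764 and 0.0709). Without EAF2Faslpr replicates 1 and 3 it was 0.215.

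**Figure D5:**
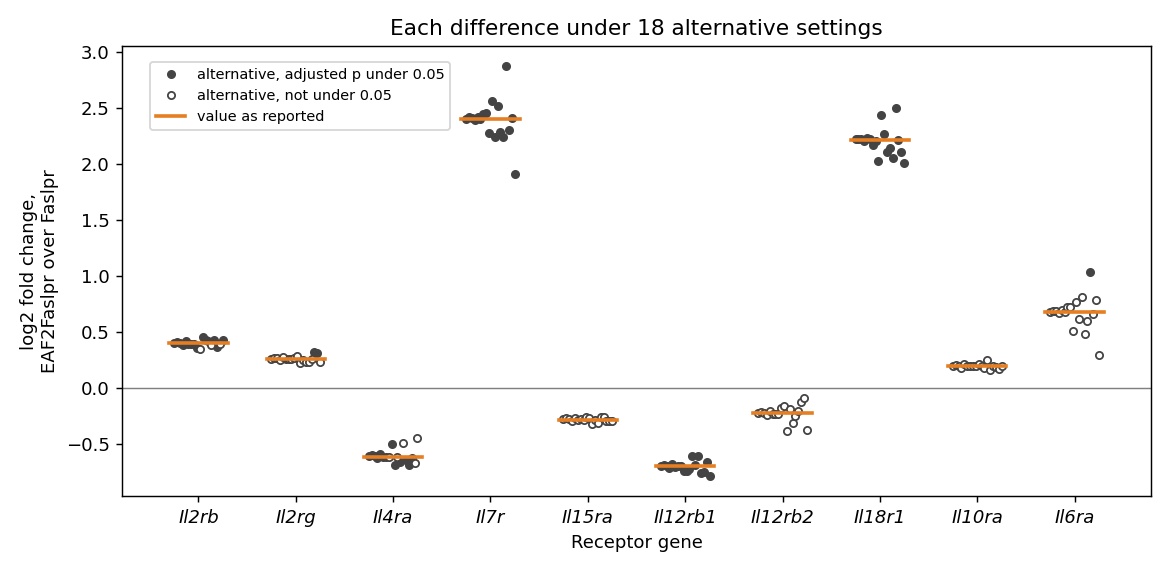
Log2 fold change of each receptor gene under each of 18 alternative settings (points; filled where the adjusted p was under 0.05) beside the value as reported (orange line). Il7r, Il18r1 and Il12rb1 stayed past the threshold in all 18 settings, Il2rb in 15 and Il4ra in 13.

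In the marker lists of other cells fewer members passed than in that of B cells. Over all tested genes 12.1% passed. Of 12 macrophage markers 10 were tested and 3 rose, with sums of 69.2 to 166 CPM in EAF2Faslpr and 55.6 to 69.7 CPM in Faslpr libraries and no marker at 0 in every library of a group. Without EAF2Faslpr replicates 1 and 3 these 3 calls were lost, and 2 remained in number without Faslpr replicate 1, 2 or 4. Of 9 dendritic cell markers 6 were tested and 1 rose, with sums of 82.8 to 95.5 and 77.2 to 90.7 CPM, and its call was lost without EAF2Faslpr replicate 2, 3 or 4 or Faslpr replicate 1 or 2. Of 8 neutrophil markers 6 were tested and 0 passed in edgeR, with 5 at an unadjusted p under 0.05 and 2 passing in DESeq2. In edgeR 3 rose without EAF2Faslpr replicate 1, 4 without EAF2Faslpr replicate 2, and 1 with replicate number as a block. Retnlg was at 0 in all Faslpr libraries. Of 8 markers of naive and central T cells, the T cells in which Il7r is typically high, 2 rose and 1 fell, with sums of 3539 to 3739 CPM in EAF2Faslpr and 2980 to 3902 CPM in Faslpr libraries. Their part in the receptor differences was not tested.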

How the data were processed

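RNA was extracted from the sorted cells with TRIzol and made into libraries with a dual-mode kit for mRNA on the DNBSEQ platform, per the labels' protocols. The authors' table held estimated counts per gene and library, not scaled to depth. It also held FPKM values computed by the authors, used here only to compare levels between genes. Per the submitters' processing notes, HISAT2 2.2.1, Bowtie2 2.4.5 and RSEM 1.3.1 were used with build GRCm39, their roles and order being unstated. The sources used here give no annotation, filters or strand setting, so values of overlapping, antisense or near-identical genes are uncertain. Of the estimated counts 36.8% were whole within 0.001. A further 16 per-sample columns of other authors' values were not used.

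Sample titles gave the groups and replicate numbers. Counts were rounded, filtered with filterByExpr, scaled with TMM factors and tested with edgeR 4.0.16 in R 4.3.3 (glmQLFit and glmQLFTest, 4 against 4 libraries, no covariate), with Benjamini-Hochberg adjustment over the 12340 genes tested and a threshold of 0.05. Where no other tool is named, an adjusted p is from this test. Fold changes are EAF2Faslpr over Faslpr, and CPM values are TMM-scaled. Within groups, libraries differed beyond sampling noise. The fit was tested on simulated data with 200 changed genes. Alternatives were other scalings (library totals, upper quartile, DESeq2's size factors), no filter, a minimum mean of 5 CPM, DESeq2 1.42.0, limma-voom (limma 3.58.1), a replicate block, leaving out each library, and leaving out both replicates numbered 4. Leaving out EAF2Faslpr replicates 1 and 3 was chosen after seeing the data.

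The text names all 10 receptor genes, every detected partner chain and, of each pathway list, its counts and up to 4 genes that passed, by smallest p. It also names the 3 genes most like the receptor gene with the largest change. Genes that did not pass in the pathway lists (Stat6, Il12a, Il10, Cish) and chromosomal neighbours were named after their values were seen. The receptor genes, gene lists and marker lists were chosen with earlier results of these data known. In the search for single libraries standing apart, 1 listed gene is not reported here.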

Additional observations from a re-analysis of the deposited data

Results flagged for a closer look

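In 152 groups of 4 libraries (76 genes of the receptor and pathway lists in 2 groups), the highest or lowest library stood apart from the other 3 by Dixon's criterion in 9, where chance gives about 1 in 20. Of the receptor genes 3 had such a library. Il7r was at 3.96 CPM in Faslpr replicate 3, with the other Faslpr libraries at 1.37 to 1.72 CPM. Il12rb1 was at 15.7 CPM in EAF2Faslpr replicate 4, with the others at 20.2 to 20.9 CPM. Il12rb2 was at 6.78 CPM in EAF2Faslpr replicate 3, with the others at 4.53 to 4.80 CPM. Among partner chains, Crlf2 was at 61.5 CPM in EAF2Faslpr replicate 3 against 54.0 to 54.5 CPM.

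EAF2Faslpr replicate 1 held 4 of the 9. There Il21 was at 24.5 CPM against 1.26 to 4.25 CPM in the other 3 libraries of the group, and Il10 at 33.7 CPM against 8.39 to 10.8 CPM. Stat5a was at 113 CPM against 83.7 to 87.7 CPM, and Prdm1 at 12.5 CPM against 6.06 to 7.04 CPM. In Faslpr replicate 4, Socs7 was at 78.8 CPM against 103 to 107 CPM in the other 3.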

How the results depend on the processing

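The number of genes changed was 1493, and 990 to 1599 with 1 library left out, the lowest without Faslpr replicate 2. It was 664 without EAF2Faslpr replicates 1 and 3, a fit on fewer libraries. The 4 scalings moved the median log2 fold change of all genes by less than 0.1. Il7r, Il18r1 and Il12rb1 passed in all 18 alternatives, with log2 fold changes of 1.91 to 2.87, 2.01 to 2.49 and -0.78 to -0.61. Il2rb passed in 15 (lost also without both replicates numbered 4, adjusted p = 0.0557) and Il4ra in 13. The number of receptor genes lower was 2, and 1 to 2 with 1 library left out. It was 1 under the replicate block, without both replicates numbered 4 (Il4ra, adjusted p = 0.0616) and without EAF2Faslpr replicates 1 and 3. Il2rg passed in 3, among them the fit without both replicates numbered 4 (adjusted p = 0.0435). Il15ra, Il12rb2 and Il10ra passed in 0. The log2 fold change of Il6st ranged from -0.13 to 0.047 with 1 library left out and was 0.036 without EAF2Faslpr replicates 1 and 3. That of Il10 was -0.021 with limma-voom, -0.48 without EAF2Faslpr replicate 1, up to 0.44 without other libraries, and -0.44 without EAF2Faslpr replicates 1 and 3. The cause was not tested. Ranks by level per length were the same for 10 of 10 genes when CPM per kilobase replaced FPKM. The lengths used for this were derived from the FPKM values themselves, so the match was built in and is no independent check. Under the minimum of 5 CPM, Il18rap was not tested.

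The labels state no pairing of libraries, and a check by replicate number could not settle whether there was any. Deviations of libraries with the same number from their group means correlated at 0.18, 0.18, 0.05 and -0.07 for numbers 1 to 4, and 2 of 4 correlated best with their own number. The fit with the replicate block called 1425 genes, and there Il4ra had an adjusted p of 0.0594. With 22.9 to 71.7 reads per Faslpr library, counting error limits Il7r and Il18r1 more than the other 8 receptor genes.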
